A study of Schmidtea mediterranea with 28 samples.

Results

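The transcripts described here are 200 early differentiation transcripts of the planarian Schmidtea mediterranea, chosen because in wild type animals they were low in the stem cell fraction and already near their final level in the fraction that holds early progeny. They were selected on cRPKM, read counts corrected for mappable length and library size, in the wild type sorted libraries. Of 22944 transcripts, 2661 had X2 and mean Xins levels within 0.5 of each other on the log2(cRPKM + 1) scale and a mean Xins cRPKM of 5 or more. These were ranked by the smaller of the rises from X1 to X2 and from X1 to Xins, and the top 200 were kept. The selection also bars 6 transcript prefixes, none of which was among the 200. Only 8 members are paired with a human protein in the study's tables of RNA-binding proteins, spliceosome components and orthologous groups. The other 192 are known here by identifier alone.

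Planarians carry adult stem cells, the neoblasts, which are the dividing cells of the animal and give rise to every other cell type. A daughter cell that leaves the cell cycle passes through a short-lived progeny state before it becomes a mature neuron, muscle, gut or epidermal cell. Flow cytometry separates these stages in part. The X1 fraction holds cells with a doubled DNA content, hence cycling neoblasts, X2 holds small cells with a single DNA content, a mixture of neoblasts and early progeny, and Xins holds larger differentiated cells, named for their insensitivity to irradiation. Transcripts higher in X2 than in X1 may therefore belong to early differentiation. A mixed bulk fraction cannot show which of its cells hold them.

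Libraries came from asexual animals of the Berlin-1 strain, which descends from 1 individual. Sorted fractions were taken from untreated wild type animals (X1 and X2, 1 library each; Xins, 2) and from animals injected for 3 days with double-stranded RNA, at 1 µg/µl for each RNA in a mix or alone, namely control RNAi (against GFP, which planarians lack), bruli RNAi and mbnl RNAi (X1 and Xins, 2 libraries per treatment; X2, 1). The bruli gene encodes a CELF-family RNA-binding protein of neoblasts, and mbnl RNAi was aimed at several muscleblind-like genes together. The control dose was raised, where needed, to match the largest one used. Whole worms gave 1 library each after control, bruli, mbnl, celf, esrp, nova, ptbp, rbfox1 and rbfoxS RNAi. The 28 libraries held between 12772545 and 34950244 counts. Targets were checked for bruli and mbnl RNAi only. The study's mbnl RNAi was also aimed at mbnl-like-2, which was not analysed here. In whole worms bruli stood at 7.60 cRPKM against 75.05 in the control, mbnl-1 at 20.0 against 33.6, mbnl-like-1 at 2.20 against 12.3 and mbnl-like-3 at 1.16 against 1.34. In X1 the bruli transcript stood at 42.4 and 74.5 cRPKM after bruli RNAi against 341 and 520 after control RNAi. After mbnl RNAi mbnl-1 stood at 10.2 and 10.9 cRPKM in X1 against 17.1 and 18.2 after control RNAi. In Xins it stood at 8.47 and 22.0 against 32.6 and 37.2. The mbnl-like-1 values were 3.08 and 3.99 against 7.53 and 8.83 in X1, and 1.21 and 2.01 against 8.23 and 7.64 in Xins. The 8 neoblast markers used to check the fractions, among them 2 PIWIL1 and 2 DDX4 homologues, were at their highest in X1. Without bruli itself, their summed cRPKM was 3580 and 4300 in X1 control libraries, 1100 in X2 control and 287 and 251 in Xins control.

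In the libraries that chose them, the members rose from X1 to both later fractions by at least 1.79 and at most 5.0 on the log2(cRPKM + 1) scale, with a median of 2.33. This is a description of the choice and was not tested. The top of the ranking was comp11968, at 0.50 cRPKM in X1, 47.1 in X2 and 110 and 27.5 in Xins. Next came comp2337, at 0.37 cRPKM in X1, 38.8 in X2 and 49.8 and 50.2 in Xins. The threshold cut through a continuum. The last members, comp11299 and comp5586, had scores of 1.794 and 1.789, and the first transcripts outside, comp11004 and comp12579, had 1.788 and 1.786.

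The agreement of X2 with Xins rests on a mean of Xins libraries that often differed from each other. Both wild type Xins libraries lay within 0.5 of X2 for only 60 of the 200 members. The first Xins library was the higher in 144 members, with a median difference of 0.60 on the log2(cRPKM + 1) scale, against 0.10 over all 12091 transcripts tested below. Ranking on the first Xins library alone kept 101 of the members, and on the second alone 98.

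The members were not confined to short transcripts. The selection itself set a floor on their levels in X2 and Xins and favoured a low level in X1. Above that floor, member cRPKM in wild type X2 ran from 2.57 to 1141 with a median of 14.0. The median was 13.7 over the 12514 transcripts above 1.5 in mean log2(cRPKM + 1). In wild type X1 the medians were 1.42 cRPKM for members and 10.2 for those transcripts, a difference that follows from the choice. The median mappable length, worked out from the ratio of counts to cRPKM, was 1.68 kb for members and 1.33 kb for those 12514 transcripts. As a contrast, 200 late transcripts were chosen from the same wild type libraries as level between X1 and X2 (within 0.5) and higher in Xins, and their median mappable length was 0.66 kb. RNA-binding proteins from the study's list made up 7 of the 200 members (3.5%) and 35 of the 2661 eligible transcripts (1.32%). They made up 282 of the 12091 transcripts tested below (2.33%) and none of the late transcripts.

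In control RNAi libraries, which had no part in the choice, the members were again low in X1 and high in X2 and Xins. The median level over the 200 members was 2.88 and 2.33 CPM (counts scaled to a common library total, with libraries adjusted by the trimmed mean of M values, TMM) in the X1 control libraries, 22.1 CPM in X2 control, and 26.3 and 28.0 CPM in Xins control. Every X1 library of any treatment had a member median below 4, and every X2 or Xins library had one above 20. The fractions are bulk samples, so a larger share of expressing cells and more RNA per cell cannot be told apart.

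**Figure D1:**
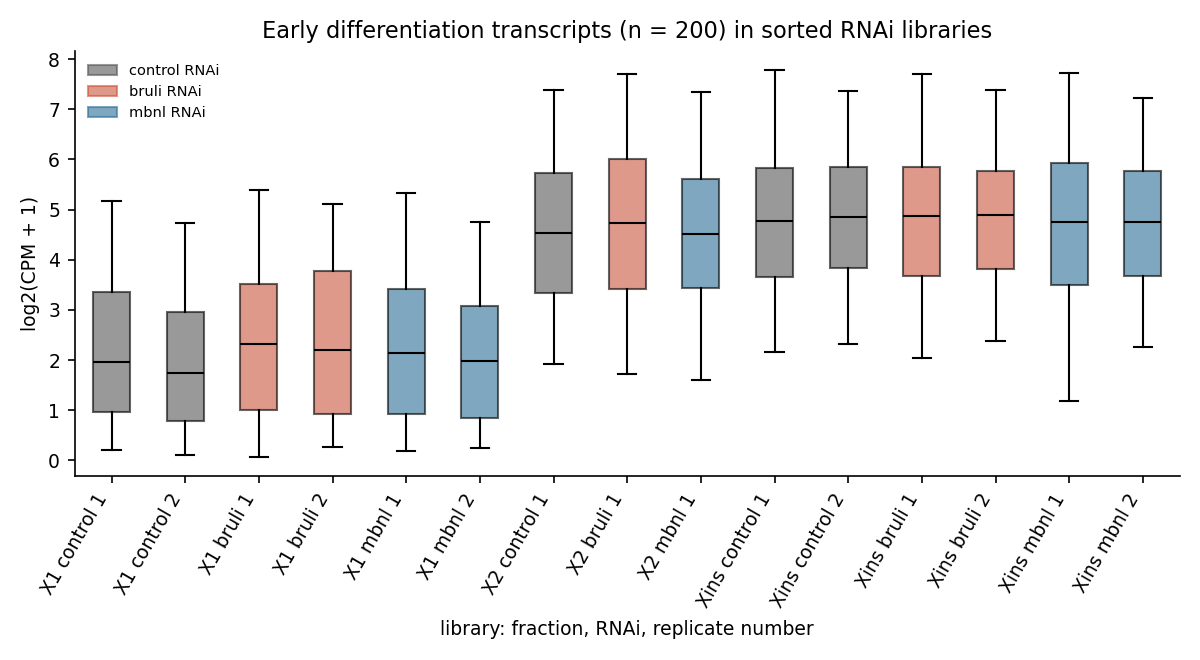
Levels of the 200 members in each of the 15 sorted RNAi libraries, as log2(CPM + 1). Boxes span the quartiles with the median as a line, whiskers reach the 5th and 95th percentiles, and colours mark the RNAi treatment. The X1 medians lie between 2.33 and 3.98 CPM and those of X2 and Xins between 21.9 and 28.5 CPM.

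Of the members, 195 passed the filter on low values and were tested beside 12091 transcripts in all with edgeR's quasi-likelihood test on counts, with Benjamini-Hochberg adjustment over all of them. The 5 others reached at most 7.94 cRPKM in a Xins control library. Between X1 and Xins after control RNAi, 188 of the 195 members rose and 0 fell, where 35.7% of all tested transcripts rose and 29.9% fell. Members differed by a median of 3.11 on the log2 scale, and all transcripts by 0.08. Within replicate number 1 alone the members' median difference in log2(CPM + 1) was 2.39, and within number 2 it was 2.75.

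The rise was present by X2. Between X1 and X2 after control RNAi, 168 of 195 members rose and 0 fell, against 16.6% and 6.86% of all transcripts. On the log2 scale the median difference was 2.97 for members, -0.08 for all transcripts and 0.77 for the late transcripts, of which 14 of 187 rose. All 168 members that rose into X2 also rose into Xins. X2 is 1 library per treatment, numbered 1, whose spread was assumed to be that of the replicated groups. It was set against X1 and Xins libraries numbered 1 and 2, so fraction and replicate number are partly mixed. Within number 1 alone the members' median difference from X1 to X2 was 2.28 in log2(CPM + 1). Without the second X1 control library 106 members were called, and without the first 141.

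From X2 to Xins few members were called. After control RNAi edgeR called 3 of 195 higher in Xins and 0 lower, against 13.1% and 11.4% of all transcripts, and the late transcripts were higher in 104 of 187. DESeq2 called 13 members higher and limma 15, with 0 lower by either. Their shares over all transcripts are not given here. The count thus depends on the tool, and also on whether replicate number enters as a block, as given at the end. The median log2 difference was 0.36 for members, 0.09 for all transcripts and 3.34 for the late transcripts. The fitted difference was within 0.5 in either direction for 93 members (47.7%) and for 26.6% of all transcripts. In CPM, the X2 control library lay below both Xins control libraries in 112 of the 200 members, between them in 41 and above both in 47. Thus X2 was more often the lower, as it was in the wild type libraries, below mean Xins in 129 members and above in 71. On the selection's own log2(cRPKM + 1) scale, X2 control lay within 0.5 of mean Xins control in 70 of the 200 members.

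**Figure D2:**
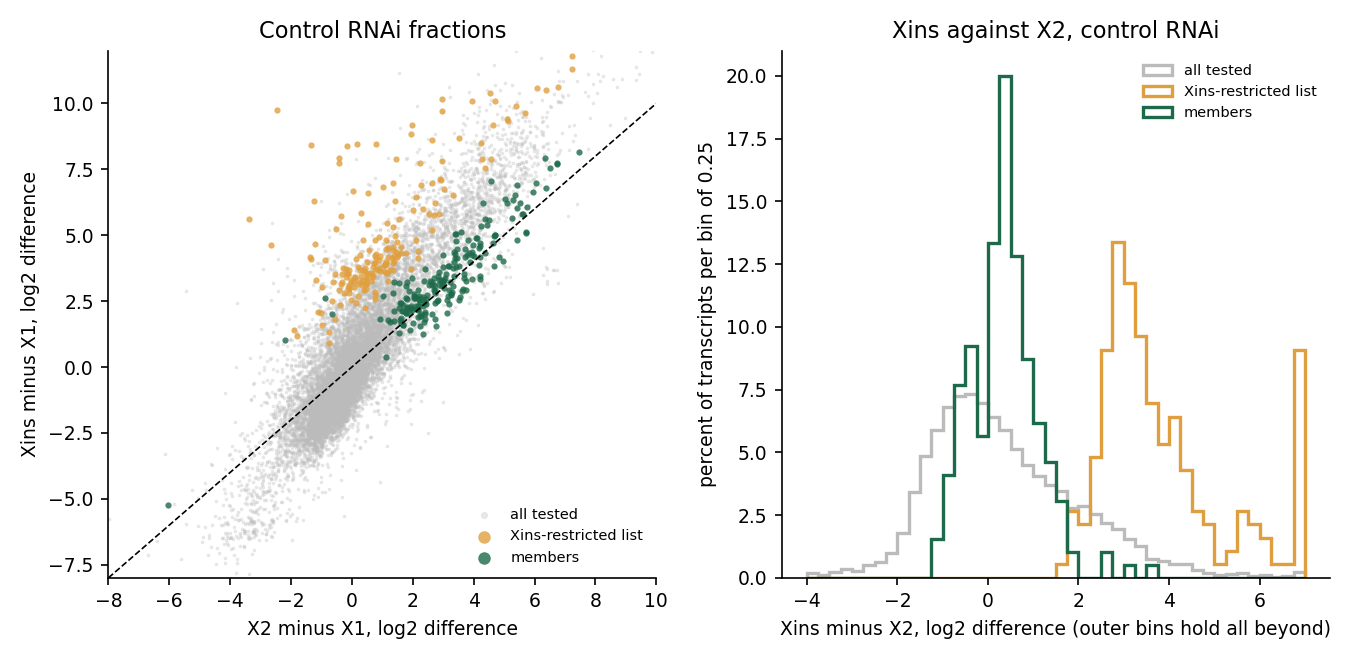
Left, log2 difference of Xins from X1 against that of X2 from X1 in control RNAi libraries for all 12091 tested transcripts (grey), members (green) and the late, Xins-restricted transcripts (orange), with the line of equality dashed; a few transcripts lie beyond the axes. Right, percent of transcripts per bin of the log2 difference of Xins from X2. The members lie along the line of equality, with a median Xins minus X2 difference of 0.36, and the late transcripts above it, with a median of 3.34.

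The 3 members called higher in Xins than in X2 included CPEB3, described below. The identifier with the largest difference was comp1647, at 3.53 and 3.10 CPM in X1 control, 1.77 in X2 control and 20.6 and 20.1 in Xins control. Its X2 value lay below both X1 values, so this transcript did not keep its wild type pattern. Next was comp9615, at 8.0 and 10.4 CPM in X1 control, 24.0 in X2 control and 65.2 and 105 in Xins control, a graded rise without overlap between fractions. Their log2 differences between X2 and Xins were 3.52 ± 0.64 and 1.82 ± 0.36 (SE; edgeR adjusted p = 0.0102 and 0.0123).

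Among members without a name, the steepest rises from X1 started near 0. The transcript comp10822 stood at 0.0497 and 0.0765 CPM in X1 control, 12.1 in X2 control and 16.8 and 23.1 in Xins control. Its log2 difference was 7.45 ± 0.64 from X1 to X2 and 8.17 ± 0.62 from X1 to Xins (SE; edgeR adjusted p = 0.000346 and 1.61e-05). The transcript comp9049 stood at 0.497 and 0.268 CPM in X1 control and 121 and 65.5 in Xins control. In cRPKM, 79 of the 200 members were under 1 in both X1 control libraries, whereas 16 were at 10 or more in both, so the set joins transcripts near zero in X1 with others that X1 already held.

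A few members went against the set. For comp811, singled out after its values were seen, X1 control libraries held 53.4 and 4.02 CPM and Xins control 0.967 and 0.580, and bruli RNAi X1 held 2.81 and 115. Its wild type cRPKM, which put it in the set, was 2.08 in X1, 21.1 in X2 and 46.6 and 9.70 in Xins. In whole worms it was far higher, between 594 and 840 cRPKM in the 9 libraries. Replicates of a single group thus lay far apart, and the difference between X1 and Xins was not called (log2 difference -5.22 ± 2.23 SE, edgeR adjusted p = 0.0628).

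Of the members with a human match, 7 encode RNA-binding proteins and the other an enzyme. Names were looked up mainly in tables of RNA-binding proteins, so this make-up follows from the lookup. A name here is the best human hit or orthologue of the planarian protein. All 8 rose from X1 to Xins after each of the 3 RNAi treatments and from X1 to X2 after control RNAi. The HDLBP rise between X1 and Xins was 1.07 on the log2 scale after bruli RNAi and lost its call without the first X1, second X1 or first Xins library, at 1.20, 0.82 and 0.77 (edgeR adjusted p = 0.0599, 0.147 and 0.143). After mbnl RNAi it was 1.09 and lost its call without the second X1 or second Xins library, at 0.66 and 1.08 (edgeR adjusted p = 0.135 and 0.0548). The direction was the same in each case, with fewer libraries tested.

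MSI2 (comp8902) matches Musashi, which in vertebrates binds mRNAs to control their translation in stem and progenitor cells. It stood at 0.546 and 0.383 CPM in X1 control, 20.1 in X2 control and 27.3 and 33.6 in Xins control. The fractions did not overlap, and the transcript was near absent from X1. The log2 difference was 5.44 ± 0.40 from X1 to X2 and 6.03 ± 0.38 from X1 to Xins (SE; edgeR adjusted p = 0.000262 and 1.09e-05), the steepest among the named members.

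CPEB3 (comp8889) matches a cytoplasmic polyadenylation element-binding protein, a regulator of translation studied in mammalian neurons. Its level was 1.44 and 0.956 CPM in X1 control, 12.9 in X2 control and 26.4 and 52.1 in Xins control, so that it rose in steps. From X2 to Xins the log2 difference was 1.61 ± 0.50 (SE, edgeR adjusted p = 0.0448), and it was 1.07 with an edgeR adjusted p of 0.161 without the second Xins control library. It was also not called by limma or without the filter on low values (adjusted p = 0.0506 and 0.0862).

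ELAVL4 (comp8376) matches the neuronal HuD protein, which in mammals stabilises mRNAs of neurons. Its level was 10.3 and 6.73 CPM in X1 control, 35.1 in X2 control and 59.3 and 57.3 in Xins control. The rise from X1 to X2 was at the edge of the threshold (log2 difference 2.04 ± 0.65 SE, edgeR adjusted p = 0.0498) and was lost without either X1 control library, at adjusted p = 0.0831 without the first and 0.215 without the second, and with DESeq2 size factors at 0.0728. From X1 to Xins the log2 difference was 2.77 ± 0.59 (SE, edgeR adjusted p = 0.00253). From the study's table of RNA-binding proteins, 25 with neural homologues were grouped here by human hit. MSI2, CPEB3 and ELAVL4 are the 3 members among these 25. Of the 23 of these tested, members included, 11 rose and 2 fell between X1 and X2 after control RNAi, and 13 rose and 8 fell between X1 and Xins.

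MEX3A (comp7864), QKI (comp13063) and RBMS1 (comp5327) match RNA-binding proteins of the KH, STAR and RRM families. MEX3A stood at 6.06 and 4.82 CPM in X1 control, 24.8 in X2 control and 33.1 and 38.2 in Xins control. QKI, whose mouse counterpart governs splicing in glia and muscle, stood at 3.03 and 2.83, then 14.8, then 14.8 and 14.3 CPM. Both had left the X1 level by X2, and QKI was level from X2 onwards. RBMS1 stood at 12.3 and 10.2 CPM in X1 control, 48.1 in X2 control and 58.5 and 44.7 in Xins control, with the X2 value between the Xins values. The log2 differences from X1 to X2 were 2.19 ± 0.34 for MEX3A, 2.33 ± 0.42 for QKI and 2.10 ± 0.38 for RBMS1 (SE; edgeR adjusted p = 0.0024, 0.00453 and 0.0045).

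HDLBP (comp553) matches vigilin, an abundant RNA-binding protein with many KH domains, and was the most abundant named member. It was far from absent in X1, at 362 and 277 CPM in X1 control against 1020 in X2 control and 950 and 977 in Xins control. The log2 difference was 1.67 ± 0.41 from X1 to X2 and 1.59 ± 0.36 from X1 to Xins (SE; edgeR adjusted p = 0.0179 and 0.00336), the smallest rises of the 8. Without the second X1 control library the rise into X2 was 1.47 and not called (edgeR adjusted p = 0.116).

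PLOD3 (comp4942) matches a procollagen lysyl hydroxylase, which modifies collagen before it is secreted. It stood at 18.3 and 16.5 CPM in X1 control, 165 in X2 control and 122 and 116 in Xins control. Its X2 value lay above both Xins values, but the difference between X2 and Xins was not called (log2 difference -0.48 ± 0.38 SE, edgeR adjusted p = 0.365). From X1 to X2 it was 3.25 ± 0.37 (SE, edgeR adjusted p = 0.000639).

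**Figure D3:**
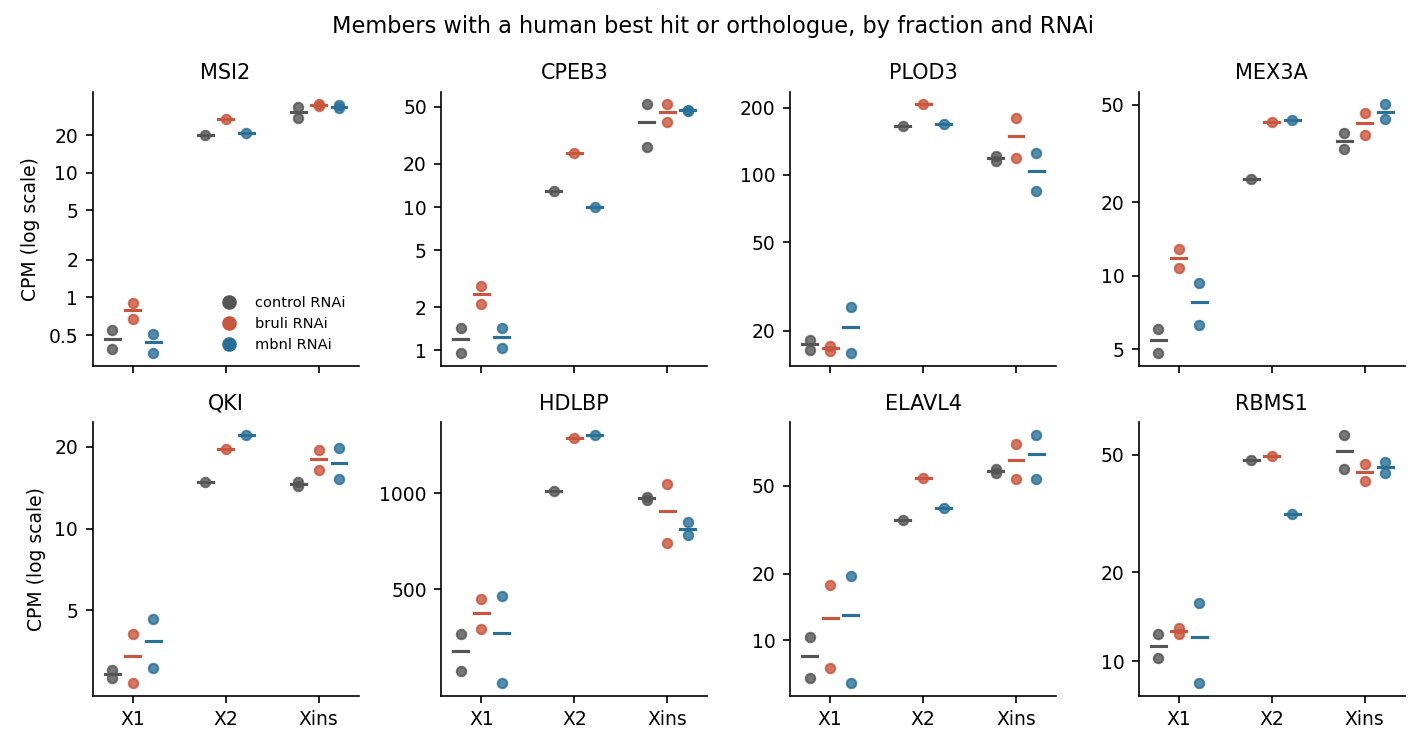
CPM on a log axis of the 8 named members in X1, X2 and Xins, by RNAi treatment. Points are libraries and short lines are group means. All X1 points lie below all X2 and Xins points in each panel, and PLOD3 is highest in X2.

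Genes of the full list of RNA-binding proteins and of the core spliceosome fell more often than they rose. Of 282 tested RNA-binding proteins, the 7 members included, 25 rose and 47 fell between X1 and X2, and 37 rose and 195 fell between X1 and Xins. None of the 77 core spliceosome components rose and 73 fell between X1 and Xins, and all 7 piRNA and germ-granule genes fell. Among homologues of epithelial RNA-binding proteins 2 of 5 tested rose between X1 and X2, and among muscle homologues 2 of 3, with no member in either list. These are counts beside the background percentages above, without a test of the lists. The epithelial, muscle and piRNA lists were also grouped here by human hit, not by the study.

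The fraction pattern of the members was also present after each knockdown. Between X1 and Xins, 179 of 195 rose after bruli RNAi and 0 fell, against 35% and 29.1% of all transcripts. After mbnl RNAi 182 rose and 0 fell, against 35.6% and 32.5%. The median log2 difference was 2.78 after bruli RNAi and 2.91 after mbnl RNAi. The largest rises among identifiers were those of comp9049 and comp15762 after bruli RNAi, by 8.62 and 7.84 on the log2 scale, and of comp2910 and comp9049 after mbnl RNAi, by 8.49 and 8.29 (edgeR adjusted p = 6.07e-05, 6.02e-05, 4.4e-05 and 3.8e-05).

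In X1 cells the members tended to stand higher after bruli RNAi than after control RNAi, although no single member passed the test. The member median was 3.98 and 3.57 CPM in the X1 bruli RNAi libraries and 2.88 and 2.33 in the X1 control libraries. The median log2 difference was 0.45 for members, with quartiles of -0.05 and 0.91, and -0.02 for all transcripts, with quartiles of -0.31 and 0.32. Both bruli RNAi libraries lay above both control libraries in 77 of 195 members and below both in 7, against 20.2% and 17.8% of all transcripts.

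The edgeR test called 0 members and 0% of all 12091 transcripts between these X1 groups. The silenced bruli transcript itself was not called there, with a log2 difference of -2.97 (edgeR adjusted p = 0.0709). A count of 0 thus does not show that levels were equal. At an unadjusted p under 0.05, 29 members were higher and 0 lower, against 4.38% and 2.53% of all transcripts. DESeq2 called 3 members higher, against 0.496% of all transcripts, and limma called 0. With replicate number as a block edgeR called some members, as given at the end. Leaving out 1 library at a time kept the members' median between 0.28 and 0.69, and within each replicate number it was 0.22 and 0.30 on the log2(CPM + 1) scale.

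MEX3A was among the clearer cases, at 10.8 and 12.9 CPM after bruli RNAi against 6.06 and 4.82 after control RNAi. The groups did not overlap (log2 difference 1.13 ± 0.29 SE), but the edgeR adjusted p was 0.375. CPEB3 stood at 2.81 and 2.10 CPM against 1.44 and 0.956, again without overlap and not called (log2 difference 1.04 ± 0.42 SE, edgeR adjusted p = 0.631). MSI2 stood at 0.903 and 0.674 CPM against 0.546 and 0.383. PLOD3, in contrast, was level, at 17.1 and 16.3 CPM against 18.3 and 16.5.

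The transcript comp2337, second in the ranking, stood at 15.5 and 15 CPM in X1 after bruli RNAi against 2.38 and 1.68 after control RNAi. Its log2 difference was 2.91 ± 0.71 (SE, edgeR adjusted p = 0.311). The member with the smallest p, comp11633, which was singled out after its values were seen, stood at 12 and 18.8 against 3.13 and 1.76 CPM. Its log2 difference was 2.66 ± 0.38 (SE, edgeR adjusted p = 0.0709), and its X1 level after bruli RNAi stayed below the 38.4 and 38.0 CPM of Xins control.

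The X1 bruli RNAi libraries also differed in marker levels. The summed cRPKM of the 7 neoblast markers other than bruli was 1600 and 1930 after bruli RNAi against 3580 and 4300 after control RNAi, and all 7 were still present. The late transcripts held 0.319% and 0.239% of the counts in the bruli RNAi libraries, but 0.370% in the first X1 control library and 0.0526% in the second. The median difference of the late transcripts was -0.05. The part of these shifts in the members' levels was not tested.

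**Figure D4:**
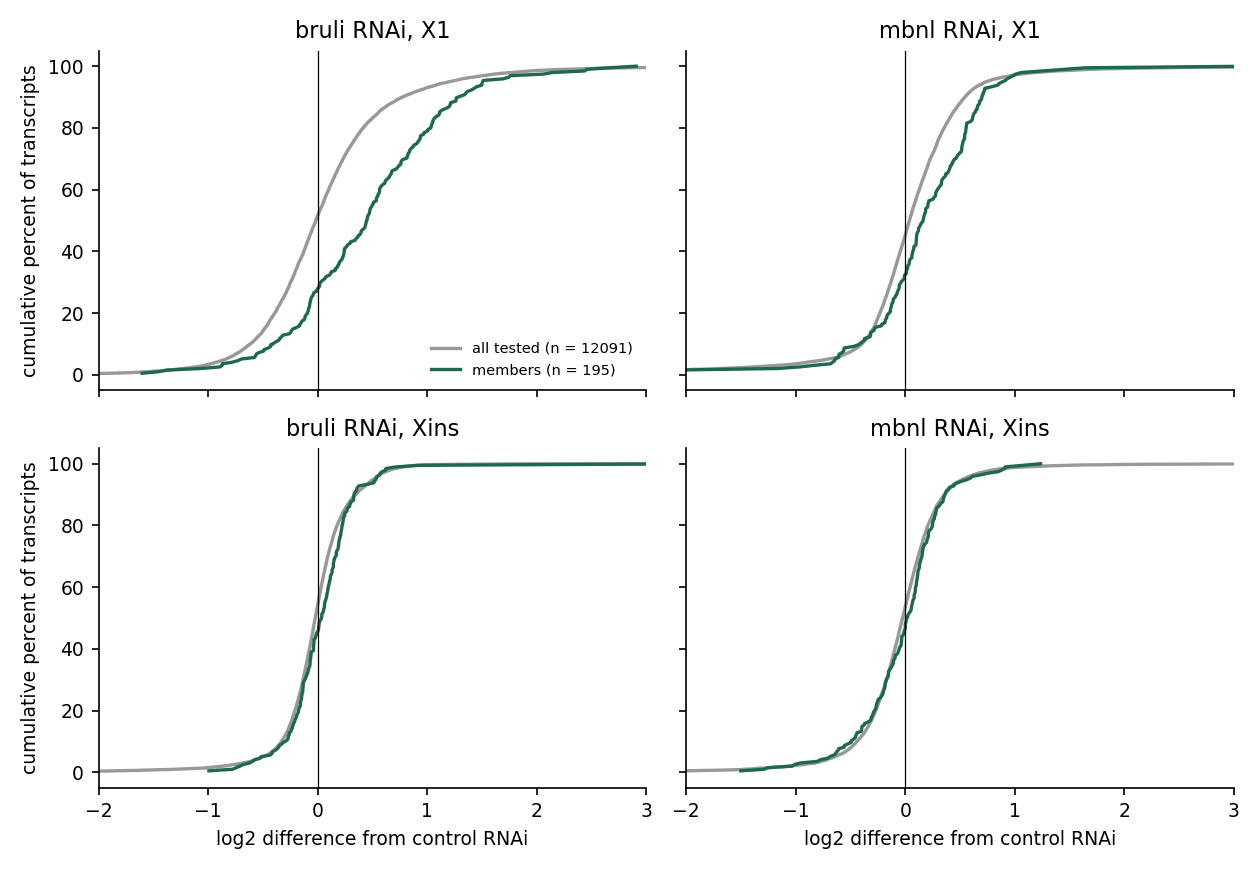
Cumulative percent of transcripts against the log2 difference of bruli or mbnl RNAi from control RNAi in X1 (top) and Xins (bottom), for 195 members (green) and all 12091 tested transcripts (grey); a few values lie beyond the axis. The members' curve stands to the right in the X1 bruli RNAi panel, with a median of 0.45 against -0.02.

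After mbnl RNAi the members in X1 were nearer to control. The median log2 difference was 0.16, against 0.04 for all transcripts, and 22 members lay above and 13 below both control libraries without overlap, against 8.85% and 7.8%. The edgeR test called 0 members and 0% of transcripts. At an unadjusted p under 0.05 it gave 1 member higher and 1 lower, against 0.562% and 1.01%, and DESeq2 and limma called 0 members. The targets mbnl-1 and mbnl-like-1 were also not called in X1 by edgeR, at log2 differences of -0.59 and -1.07.

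In Xins the members stood close to control after either knockdown. The median log2 difference was 0.04 after bruli RNAi and 0.02 after mbnl RNAi, against -0.02 for all transcripts in both. For bruli RNAi edgeR called 0 members and 0% of transcripts, with 0 members in either direction at an unadjusted p under 0.05, against 0.0579% higher and 0.595% lower. For mbnl RNAi it called 0 members and 0%, again with 0 members at an unadjusted p under 0.05, against 0.364% higher and 1.48% lower. DESeq2 and limma also called 0 members in both. The silenced transcripts that were tested were not called by edgeR in Xins either. After bruli RNAi the log2 difference of bruli was -2.14. After mbnl RNAi it was -1.21 for mbnl-1 and -2.26 for mbnl-like-1. Counts of 0 in this test thus do not show that the members were unchanged.

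The bruli effect in Xins was then compared with that in X1. Its median difference was -0.46 for members and -0.02 for all transcripts, with 57 of 195 members above 0. By edgeR 0 members and 0% of transcripts passed, and at an unadjusted p under 0.05 the effect was lower in Xins for 10 members and higher for 0, against 1.83% and 0.753%. DESeq2 called 1 member lower, against 0.0248% of transcripts, and limma 0. For MEX3A the difference between the effects was -0.89 ± 0.41 (SE, edgeR adjusted p = 1). A bruli effect on the members that differs between X1 and Xins was therefore not shown for any one of them by edgeR.

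The same comparison for mbnl gave a median of -0.19 for members and -0.10 for all transcripts. The edgeR test called 0 members and 0% of transcripts. At an unadjusted p under 0.05 there was 1 member higher and 1 lower, against 0.265% and 0.629%, and DESeq2 and limma called 0 members.

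X2 and whole worms have 1 library per treatment, so the values that follow are differences between libraries without a replicate check. They are given as log2((cRPKM + 1)/(control cRPKM + 1)), and a size past 0.7 is counted. In X2 after bruli RNAi, 16 of 195 members were past 0.7 higher and 0 lower, against 4.03% and 5.23% of the 10459 transcripts over the filter. The members' median was 0.22, and that of all transcripts 0.02. The late transcripts moved further in the same library, with 36 of 91 higher and 3 lower and a median of 0.40, and they held 0.666% of its counts against 0.28% in X2 control. The higher values were therefore not particular to the members. The summed cRPKM of the 7 neoblast markers other than bruli was 556 in this library and 1100 in X2 control, and the part of that difference was not tested.

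The member with the largest X2 difference was comp2910, at 33.9 cRPKM after bruli RNAi and 13.6 after control RNAi, a difference of 1.26. It was followed by comp2337, at 45.6 and 18.7 cRPKM, a difference of 1.24, the transcript that also stood higher in X1. Among named members the largest differences were 0.81 for CPEB3, 0.7 for MEX3A, 0.59 for ELAVL4 and 0.54 for HDLBP, and the smallest was 0.04 for RBMS1.

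After mbnl RNAi in X2, 3 members were higher and 18 lower, against 2.65% and 14% of all transcripts. The members' median of -0.18 was close to the -0.20 of all transcripts. Of the late transcripts 0 of 91 were higher and 37 lower, with a median of -0.61. The lowest were comp1017, at 23.4 cRPKM against 118, and comp162, at 328 against 1209, differences of -2.29 and -1.88. RBMS1 was the named member past the threshold, at -0.80. The highest were comp2910 and comp12181, at 0.92 and 0.81. Both X2 knockdowns were set against the same control library. There comp2910 stood at 13.6 cRPKM, below its 33.9 after bruli RNAi and 26.5 after mbnl RNAi.

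In whole worms the members were well detected, with a median between 11.3 and 13.9 cRPKM in the 9 libraries, and 199 of them passed the filter. All 8 knockdown libraries were set against the same control library. After bruli RNAi 8 members were higher and 0 lower, against 5.46% and 0.589% of 12572 transcripts. After mbnl RNAi the counts were 2 and 1, against 0.366% and 1.34%. The bruli RNAi median was 0.16 for members and 0.12 for all transcripts, so that most of the shift was shared by transcripts at large.

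The remaining knockdowns moved few members. After celf RNAi 4 were higher and 1 lower (2.79% and 0.374% of all transcripts), and after esrp RNAi 3 and 0 (0.78% and 0.509%). After nova RNAi 3 were higher and 1 lower (1.75% and 1.5%), and after ptbp RNAi 2 and 0 (0.676% and 0.541%). After rbfox1 RNAi 2 were higher and 0 lower (0.286% and 0.517%), and after rbfoxS RNAi 2 and 1 (2.43% and 0.644%). The members' medians in these 6 comparisons ran from -0.07 to 0.10.

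The same pair, comp162 and comp1017, had the highest values of all members in each whole worm comparison. The abundant transcript comp162 stood at 941 cRPKM in the control and between 1795 and 2169 in the 8 knockdown libraries. For comp1017 the control held 93.1 cRPKM and the knockdowns 201 to 248. In both, the single control library was the lowest of the 9, so these counts share 1 value on the control side. Both also varied between sorted replicates, comp162 standing at 535 and 73.2 CPM in the Xins control libraries. Among members with 50 or more counts in either library, comp13735 after mbnl RNAi and comp2910 after nova RNAi were at -0.74 each.

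**Figure D5:**
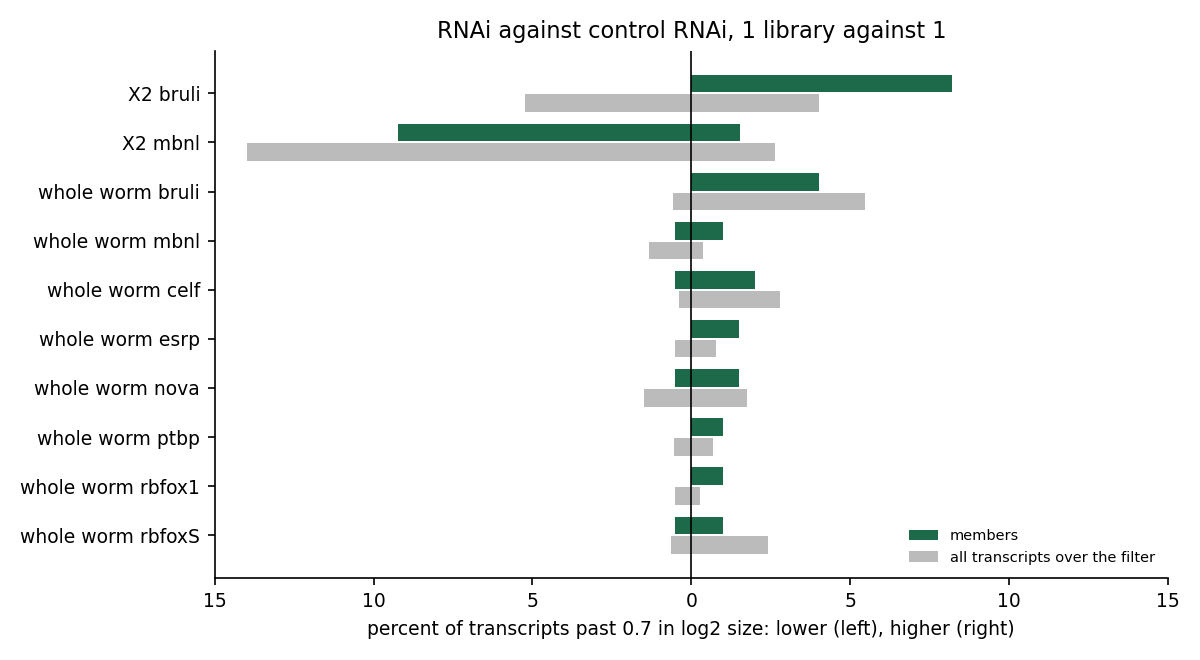
Percent of members (green) and of all transcripts over the filter (grey) past 0.7 in log2 size, lower to the left and higher to the right, for each comparison of 1 RNAi library with 1 control library. The members exceed the background on the higher side in X2 after bruli RNAi, at 8.21% against 4.03%, and stay below it on the lower side in X2 after mbnl RNAi, at 9.23% against 14%.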

How the data were processed

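Poly-A RNA was sequenced on an Illumina HiSeq2000, and the authors mapped reads with Bowtie (version not given in the sources used here) to a de novo transcriptome. Per the study's methods, the deposited cRPKM values (RPKM divided by mappable positions) came from vast-tools, beside a deposited raw count per transcript. Blank counts, where cRPKM was 0, were read as 0. In the sorted RNAi libraries numbered 1, cRPKM implied totals 1.16 to 1.30 times the summed counts. Members and lists were chosen with earlier results of these data known.

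Tests used edgeR 4.0.16 (R 4.3.3) on the 15 sorted RNAi libraries in 9 groups, with TMM scaling and a filter of mean log2(cRPKM + 1) above 1.5 over the compared libraries. An adjusted p under 0.05 was called, and SE is the log2 difference over the root of F. Wild type libraries entered no test. The code was tested on simulated data. Comparisons of 1 library with 1 used a pseudocount of 1. Alternatives used DESeq2 1.42.0, limma 3.58.1, other filters, scalings, thresholds and member lists, and single libraries left out. No source states that replicates came from separate animals, so p-values measure the spread between libraries, which may be technical. Named were members with a human match, at most 2 identifiers at either extreme of a comparison, and those at the ends of the ranking.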

Additional observations from a re-analysis of the deposited data

How the results depend on the processing

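Counts of members that rose between X1 and X2 or Xins stayed within 1.5 times of those given under every alternative run, except that without the second X1 control library 106 members rose into X2 in place of 168. Leaving out single libraries gave 173 to 177 members rising between X1 and Xins after control RNAi, 106 to 141 between X1 and X2, 152 to 165 after bruli RNAi and 161 to 175 after mbnl RNAi, fewer samples being tested. Between X2 and Xins it gave 2 to 3, and in the 6 RNAi comparisons 0. Between X2 and Xins DESeq2 called 13 members higher in Xins and limma on log2(cRPKM + 1) 15, in place of 3. Members ranked on the second wild type Xins library alone gave 18. The shares of all transcripts called by DESeq2 and limma are not given here. Between bruli and control RNAi in X1 DESeq2 called 3 members in place of 0, and for the difference of the bruli effects 1. The cause was not tested.

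Replicate numbers 1 and 2 were shared across the X1 and Xins groups, and every X2 RNAi library was numbered 1. Within number 1 alone the members' median Xins minus X2 difference after control RNAi was 0.28 in log2(CPM + 1). The deviations of same-numbered libraries correlated at 0.05 in 1 of 15 pairs of groups and between 0.39 and 0.74 in the others. Among the sorted RNAi libraries, cRPKM implied totals above the summed counts only in those numbered 1. Whether the numbers mark a shared batch is not stated, and the counts in the results above did not use them. With replicate number as a block, 23 members were called higher and 2 lower in Xins than in X2, and 5 in X1 after bruli RNAi. The comparisons of X1 with later fractions gave 192, 186, 185 and 188. The shares of all transcripts called with the block are not given here.

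For 1 library against 1, a threshold of 1 left 3 members in X2 after bruli RNAi and 4 after mbnl RNAi, and in whole worms 2 after bruli, 1 after mbnl, 3 after celf, 1 after esrp and 2 after nova RNAi. A pseudocount of 0.1 gave 13 after bruli, 7 after nova, 5 after ptbp and 7 after rbfoxS RNAi, and TMM-scaled CPM 5 after bruli RNAi. Members ranked on the first Xins library alone gave 6 after mbnl, 3 after celf, 10 after nova, 5 after ptbp and 5 after rbfoxS RNAi, those ranked on the second alone 7 after nova RNAi, those within 0.25 gave 1 after ptbp RNAi, and those with a Xins mean of 10 or more gave 5 after rbfoxS RNAi. The directions of these counts and the shares of all transcripts under the same alternatives are not given here. The counts in this paragraph can therefore not be set against a background. Depth limits the X1 values most, where members near 0 rest on few counts.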
